A study of Homo sapiens with 12 samples.

Results

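HepG2 is an established human liver tumour line that keeps many hepatocyte functions and expresses the fetal liver protein alpha-fetoprotein. Sorafenib-resistant HepG2 cells were compared with their parental cells by RNA sequencing, 3 samples of each, out of 12 samples in the series, which also holds a second liver tumour line that was not used here. All 27249 rows with an Ensembl gene identifier were considered, and the 11762 genes that reached at least 1 FPKM (fragments per kilobase of exon, scaled to the mapped reads of the sample; the unit is inferred from the values) in at least 3 of these 6 samples were tested. Parental cells were untreated. Resistant cells had been given sorafenib at a first dose of 10 μmol, with a change of medium after 24 h, and then rising doses over 8 months. Both groups share the genotype recorded as WT, and the resistant samples come from 1 selected line. No label says whether the 3 samples of a group were separate cultures, so the p-values below measure the spread between these samples, which may be technical, and cannot separate resistance from other differences between the selected line and its parent.

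Sorafenib is an oral inhibitor of RAF kinases and of the VEGF and PDGF receptor tyrosine kinases, used against advanced hepatocellular carcinoma. RAF passes growth factor signals through MEK to ERK, and active ERK induces its own inhibitors, such as the DUSP phosphatases and Sprouty proteins, together with early transcription factors. Liver cells also respond to inflammatory cytokines through NF-kB and STAT3, which raise chemokines and the acute phase proteins of plasma.

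The reads calculated back from the FPKM values came to 12290128 to 15728850 per parental sample and 16935520 to 18281775 per resistant sample. Correlations between samples of the same group ranged from 0.953 to 0.982 (Pearson, log2(FPKM + 1), across genes). Within the groups, samples departed from their group mean in step with the GC content of the genes: the Spearman correlation over 11756 genes was -0.755, 0.731 and 0.343 in resistant replicates 1, 2 and 3, and -0.257, 0.506 and -0.319 in parental replicates 1, 2 and 3. Resistant replicates 1 and 2 departed most, in opposite directions, and their values are given beside the results they touch. The summed level of 10 hepatocyte markers was 5842 to 6697 FPKM in resistant and 5642 to 6381 FPKM in parental samples. By contrast, 8 of 10 fibroblast markers, 7 of 8 endothelial and 6 of 8 macrophage markers stayed below 1 FPKM in all 6 samples. Of 8 lymphocyte markers, 3 did so, and their summed level was 6.97 to 8.20 FPKM in resistant and 7.86 to 8.59 FPKM in parental samples. Of the endothelial list PECAM1 alone was tested (-0.81). The fetal liver and HepG2 markers summed to 419 to 499 FPKM in resistant and 1148 to 1759 FPKM in parental samples, led by AFP. Of the 5 tested, however, 3 had log2 fold changes above 0 (median 0.15). The bile duct list summed to 275 to 306 FPKM in resistant and 207 to 247 FPKM in parental samples, led by SPP1 (log2 fold change 1.83). Of its 5 tested members 3 lay below 0 (median -0.18), so neither sum describes most members of its list. A value near 0 in these tables does not show a silent gene: PRC1, which dividing cells use, did not exceed 0.206 FPKM in any sample, and the liver genes HPX and APOE did not exceed 0.168 and 0.504 FPKM.

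Resistant cells differed from parental cells in both directions. In the limma test on log2(FPKM + 1), 387 genes (3.29% of those tested) were called higher and 350 (2.98%) lower in resistant cells, 6.27% in all, with calls made at an adjusted p below 0.05 and a change of more than 1 log2 unit. Log2 fold changes above 0 were found for 61% of the genes. Without the condition on size, 1366 genes (11.6%) were higher and 991 (8.43%) lower. The 3 samples of a group did not overlap those of the other for 380 of the 387 genes called higher and for all 350 genes called lower. Over all genes tested the shares were 24.9% and 15.5%. The calls were made from the same 6 values and nearly require such separation, so it describes the calls and adds no separate evidence. Genes called higher made up 52.5% of the calls, 44.6% after upper-quartile scaling, 40% after median-ratio scaling and 38.6% once the GC trend of each sample was removed. The last of these moved the median over all genes from 0.12 to 0.01 on the log2 scale, and median-ratio scaling moved it to 0.03. Removing the GC trend also took out the overall offset of each sample from the gene means. Its effects, here and below, are therefore not those of GC content alone. Leaving out 1 sample at a time, 206 of the genes called higher and 257 of those called lower kept their call in all 6 fits. Log2 fold changes below are resistant over parental on the log2(FPKM + 1) scale, which understates the change of genes near 0, and values by sample are given in the order of replicates 1, 2 and 3. Counts of called genes in the lists below are to be read beside the shares of all genes, 3.29% called higher and 2.98% lower. Counts at an adjusted p under 0.05 are to be read beside 11.6% higher and 8.43% lower.

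**Figure D1:**
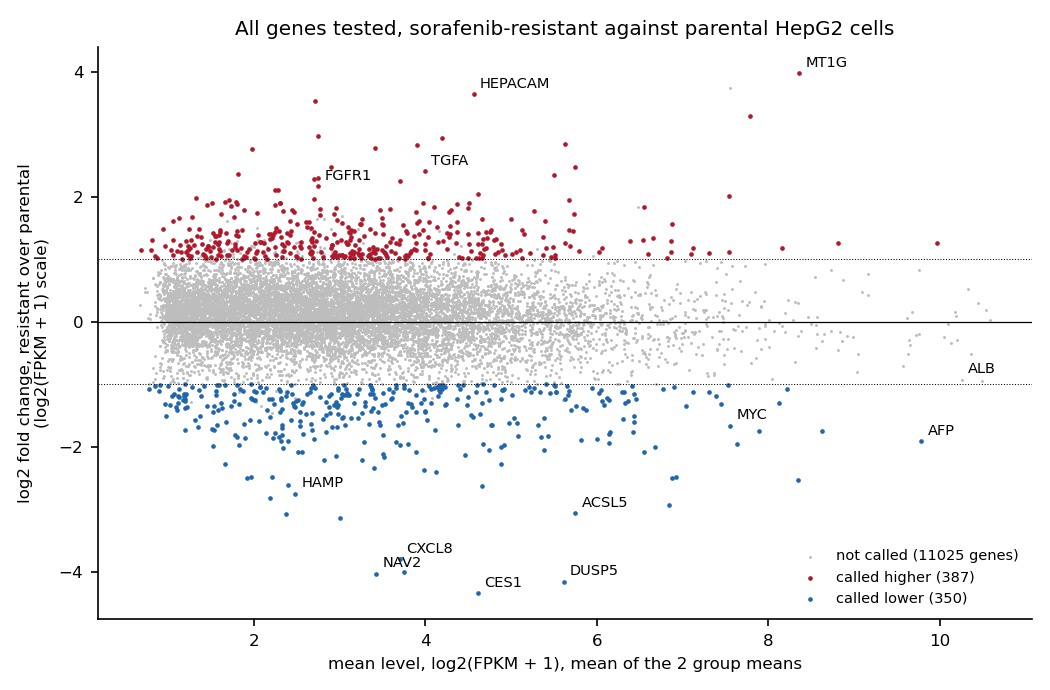
Each point is 1 of the 11762 genes tested, with its mean level on the x axis (log2(FPKM + 1)) and its log2 fold change, resistant over parental, on the y axis. The dotted lines mark log2 fold changes of 1 and -1. Calls lie on both sides, from CES1 at -4.34 to MT1G at 3.98.

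The genes that rose most were led by metallothioneins, small cysteine-rich proteins that bind zinc, copper and cadmium. MT1G (ENSG00000125144, chr16:56666731-56668065, GRCh38) was at 507, 702 and 622 FPKM in resistant cells and at 16.2, 40.03 and 79.5 FPKM in parental cells. Every resistant sample lay far above every parental one, although the parental samples differed severalfold among themselves (log2 fold change 3.98, SE 0.47, adjusted p = 0.0015). MT1E (chr16:56625475-56627112) stood at 379, 413 and 403 FPKM against 27.1, 42.6 and 55.4 FPKM (3.28, SE 0.24). MT1X, MT1F, MT1A and MT1M, which lie between MT1E and the end of the same cluster, rose by 2.94, 2.84, 2.48 and 2.97. MT2A, the other cluster member tested, was at 1.64, 3.58 and 3.49 FPKM against 1.17, 1.44 and 1.27 FPKM and did not pass (adjusted p = 0.055). The pseudogene MT2P1 on chromosome 4 also rose (2.47). Metallothionein genes are near-identical copies, so reads may have been shared out between them and the values of single members are uncertain. Of the 15 tested members of a list of metallothioneins and metal transporters, 7 were called higher and none lower, with a median of 0.96 against 0.12 over all genes. The zinc importer SLC39A4 was called higher (1.17), the zinc exporter SLC30A1 passed the test at 0.96, and the manganese exporter SLC30A10 (-0.78) and the copper importer SLC31A1 (-0.72) were lower at an adjusted p under 0.05. MTF1, the transcription factor that senses zinc, was at 0.07.

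Outside this family, transcripts with large rises included HEPACAM, a cell adhesion protein of the immunoglobulin family, KLHL14, SULF2, a sulfatase that trims heparan sulfate, and TGFA. HEPACAM (chr11:124919193-124936412) was at 35.5, 47.6 and 45.1 FPKM against 1.53, 3.12 and 3.09 FPKM (3.63, SE 0.22). KLHL14 (chr18:32672671-32773062) reached 28.2, 22.3 and 24.9 FPKM against 2.01, 2.53 and 3.67 FPKM (2.82, SE 0.19). SULF2 was at 16.6, 17.4 and 18.9 FPKM against 1.51, 1.59 and 2.06 FPKM (2.78). In each of these 3 genes every resistant sample lay far above every parental one, and groups that do not overlap were a condition of choosing them. The antisense transcript AC012123.1, which overlaps the 5′ end of KLHL14 on the other strand, rose with it (1.97, SE 0.17), and since the counting is not stated to use strand the reads of this pair cannot be told apart. A small RNA gene annotated as RF00019 (ENSG00000238813, chr2:166123494-166123597) had 9 to 13 reads in resistant samples and was listed at 0 in all 3 parental samples.

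The transcripts that fell most had metabolic, signalling and developmental roles. CES1 (chr16:55802851-55833337), the main carboxylesterase of liver, was at 1.07, 1.51 and 1.33 FPKM in resistant cells and at 44.8, 50.7 and 41.4 FPKM in parental cells, a ratio of means of 0.0285 (log2 fold change -4.34, SE 0.15, adjusted p = 6.3e-06). NAV2 (chr11:19350724-20121598), a neuron navigator protein, fell from 20.1, 17.4 and 20.3 FPKM to 0.223, 0.309 and 0.184 FPKM (-4.03, SE 0.14). HAL, the histidine ammonia-lyase that opens histidine breakdown, fell from 32.2, 26.7 and 14.2 FPKM to 0.551, 0.510 and 0.452 FPKM (-4.001, SE 0.27). MYCN, a MYC family transcription factor, fell by 3.15, C5AR1, the receptor of complement fragment C5a, fell by 3.08, SDC4, a heparan sulfate proteoglycan of the cell surface, fell by 2.94, and BICC1, an RNA-binding protein, fell by 2.83. For each of these 7 genes the lowest parental sample lay above the highest resistant sample, which was a condition of choosing them. Each kept its call whichever sample was removed.

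**Figure D2:**
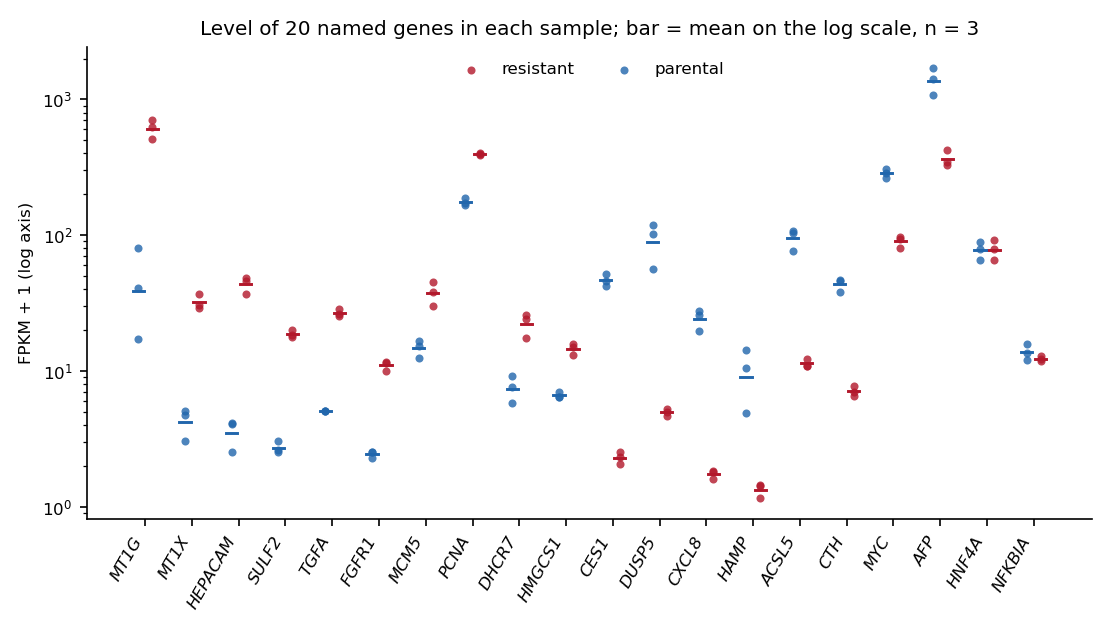
FPKM + 1 (log axis) of 20 genes in each of the 3 resistant (red) and 3 parental (blue) samples, with bars at the mean on the log scale. The groups are apart for the first 18 genes, and the samples of HNF4A (64.0 to 90.5 FPKM in resistant, 64.7 to 88.2 FPKM in parental cells) and NFKBIA overlap.

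Among the kinases sorafenib inhibits and their partners, transcript levels differed little. Of 17 listed genes 9 were tested, and none was called in either direction. BRAF was at -0.21 (SE 0.16). PDGFRB was lower at an adjusted p of 0.047 (-0.56). The VEGF receptors KDR and FLT1 did not exceed 0.0090 and 0.0305 FPKM in any sample. Receptors and ligands outside this list moved more. TGFA, a ligand of EGFR, was at 24.5, 25.2 and 27.7 FPKM in resistant and 4.07, 4.05 and 4.04 FPKM in parental cells, so that the samples of each group lay close together and the groups far apart (2.41, SE 0.13, adjusted p = 6.3e-05). FGFR1, a fibroblast growth factor receptor, was at 8.97, 10.6 and 10.4 FPKM against 1.27, 1.54 and 1.52 FPKM (2.17, SE 0.14). FGFR4, the main FGF receptor of hepatocytes, was at 53.4, 120 and 104 FPKM against 29.98, 39.5 and 47.3 FPKM. Its resistant replicate 1 lay just above the highest parental sample, and its call (1.17, adjusted p = 0.030) was lost without resistant replicate 2 (0.94), resistant replicate 3 (1.05, adjusted p = 0.097), parental replicate 1 (0.999) or parental replicate 2 (1.19, adjusted p = 0.062), and with the GC trend removed (0.91). PDGFA was called lower (-1.78), as was the insulin receptor INSR (-1.01, and just under a called size without resistant replicate 1, resistant replicate 3 or parental replicate 1), and the EGFR ligands HBEGF (-0.97) and AREG (-0.74) were lower at an adjusted p under 0.05. EGFR itself was at 0.29 (adjusted p = 0.17) and MET at -0.34 (adjusted p = 0.23).

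Transcripts that ERK signalling induces lay mostly below 0, but few were called. DUSP5 (chr10:110497838-110511544), a nuclear phosphatase that inactivates ERK, was at 3.997, 4.23 and 3.62 FPKM in resistant and 119, 102 and 55.0 FPKM in parental cells (-4.16, SE 0.26, adjusted p = 0.00013). MYC fell from 262, 286 and 305 FPKM to 79.5, 96.3 and 92.1 FPKM (-1.66, SE 0.14). The cytoplasmic ERK phosphatase DUSP6 was at 30.9, 26.4 and 28.0 FPKM against 33.8, 40.3 and 39.4 FPKM, and its difference did not pass (-0.40, adjusted p = 0.076). EGR1 (-0.72, adjusted p = 0.056), CCND1 (0.29) and SPRY4 (-0.52) did not pass either. In all, 2 of the 16 tested ERK-induced transcripts were called lower and none higher, with 12 below 0 and a median of -0.39. The number lower at an adjusted p under 0.05 was 3, but 8 under median-ratio scaling and 11 with the GC trend removed. Among immediate early genes, which encode transcription factors that respond first to growth factors and stress, 6 of 14 were called lower, against 2.98% of all genes, and none higher (median -0.72). JUN, for example, was at 5.22, 5.90 and 6.47 FPKM against 18.2, 18.2 and 18.9 FPKM (-1.51, SE 0.13). FOSL2 (-1.66), KLF10 (-1.64), MAFF (-1.59), KLF6 (-1.24) and ATF3 (-1.19) were the other 5. BTG2, an antiproliferative gene, passed the test in the other direction (0.70). With 1 FPKM required in all 6 samples, 11 immediate early genes were fitted and 4 called lower.

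NF-kB is a dimer of REL proteins that binds short sites in the promoters of chemokine and regulator genes. The letters GGAATTTCC, searched on both strands, occurred in 7 of the 14 promoters found for the 18 tested NF-kB genes, and in 0.472% of all 27305 RefSeq promoters of the same length (GRCh38.p14, from 250 bases before the start site to 50 bases after it). A match is a description and not a site shown to be used. Stretches around it are shown, 5′ to 3′ along the gene with the match in capitals, for 3 genes that were called lower and 2 that were not called.
CXCL8 (chr4:73740448-73740516, + strand, lower): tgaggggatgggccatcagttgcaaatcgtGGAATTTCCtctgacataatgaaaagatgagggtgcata
CXCL2 (chr4:74099234-74099302, - strand, lower): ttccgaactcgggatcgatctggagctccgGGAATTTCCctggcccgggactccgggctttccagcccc
NFKBIZ (chr3:101827740-101827806, + strand, lower): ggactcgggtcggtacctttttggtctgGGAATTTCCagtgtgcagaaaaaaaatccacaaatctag
NFKBIA (chr14:35404792-35404860, - strand, not called): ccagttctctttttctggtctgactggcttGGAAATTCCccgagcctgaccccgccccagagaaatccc
REL (chr2:60881498-60881566, + strand, not called): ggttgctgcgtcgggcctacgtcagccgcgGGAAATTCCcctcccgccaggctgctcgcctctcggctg
The match began 91 bases before the start site in CXCL8, 77 in CXCL2, 222 in NFKBIZ, 81 in NFKBIA and 46 in REL.

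Chemokine transcripts of this pathway fell. CXCL8 (ENSG00000169429, chr4:73740506-73743716), the neutrophil chemokine interleukin 8, was at 0.805, 0.601 and 0.818 FPKM in resistant and 24.8, 18.8 and 26.5 FPKM in parental cells (-3.79, SE 0.17, adjusted p = 2.4e-05). CCL20 fell from 79.2, 52.8 and 67.4 FPKM to 19.4, 13.2 and 13.2 FPKM (-2.05, SE 0.21). CXCL2 was listed at 0, 0 and 0.116 FPKM, no more than 3 reads in a resistant sample, against 33 to 89 reads in parental samples. SOD2, the mitochondrial superoxide dismutase, fell by 2.41 from 34.7, 25.6 and 24.5 FPKM, and a second Ensembl entry of the same name overlaps it, so that reads may have been divided between them. RELB, an NF-kB subunit (-1.70), the regulator NFKBIZ (-1.47) and CSF1, the macrophage growth factor (-1.47), completed the 7 of 18 tested members called lower, against 2.98% of all genes. No member was called higher, and the median was -0.76. With 1 FPKM required in all 6 samples, 15 members were fitted and 4 called lower (median -0.49). The inhibitor NFKBIA was at 11.1, 11.8 and 10.8 FPKM against 12.6, 14.7 and 10.96 FPKM, samples that overlapped (-0.16, adjusted p = 0.46), and RELA (-0.03) and REL (0.02) lay near 0. NFKBIA and REL thus carry the same letters as CXCL8 with log2 fold changes near 0.

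Secreted proteins of the acute phase response fell as well. HAMP, the iron hormone hepcidin, was at 0.157, 0.436 and 0.425 FPKM in resistant and 13.2, 9.49 and 3.87 FPKM in parental cells (-2.75, SE 0.35, adjusted p = 0.0019). The fibrinogen chain FGB fell from 54.5, 35.7 and 51.7 FPKM to 13.6, 9.51 and 10.5 FPKM (-1.98, SE 0.20), and the other chains FGG (-1.32) and FGA (-1.12) fell too. LCN2, an iron-binding lipocalin (-2.48), ITIH3 (-1.33), SERPINA3 (-1.304) and ORM2 (-1.13) were also called, which makes 8 of 21 tested members lower, against 2.98% of all genes, and none higher, with a median of -0.81. In all 13 members were lower at an adjusted p under 0.05, whereas the cytokine receptor subunit IL6ST (-0.17), its kinase JAK1 (-0.22), STAT3 (-0.31) and haptoglobin HP (-0.31, adjusted p = 0.26) did not pass. With 1 FPKM required in all 6 samples, 17 members of the list were fitted and 6 called lower. None of the 16 promoters found for this list held GGAATTTCC. The complement list had 2 of 16 members called lower, against 2.98% of all genes (CD55, a membrane inhibitor, -1.44, and C8A, -1.08), and C3 was lower at -0.66. The coagulation list had 2 of 15 called lower, PLG, plasminogen (-1.08), being the smaller change, while 9 of 15 lay above 0 and the median was 0.15.

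**Figure D3:**
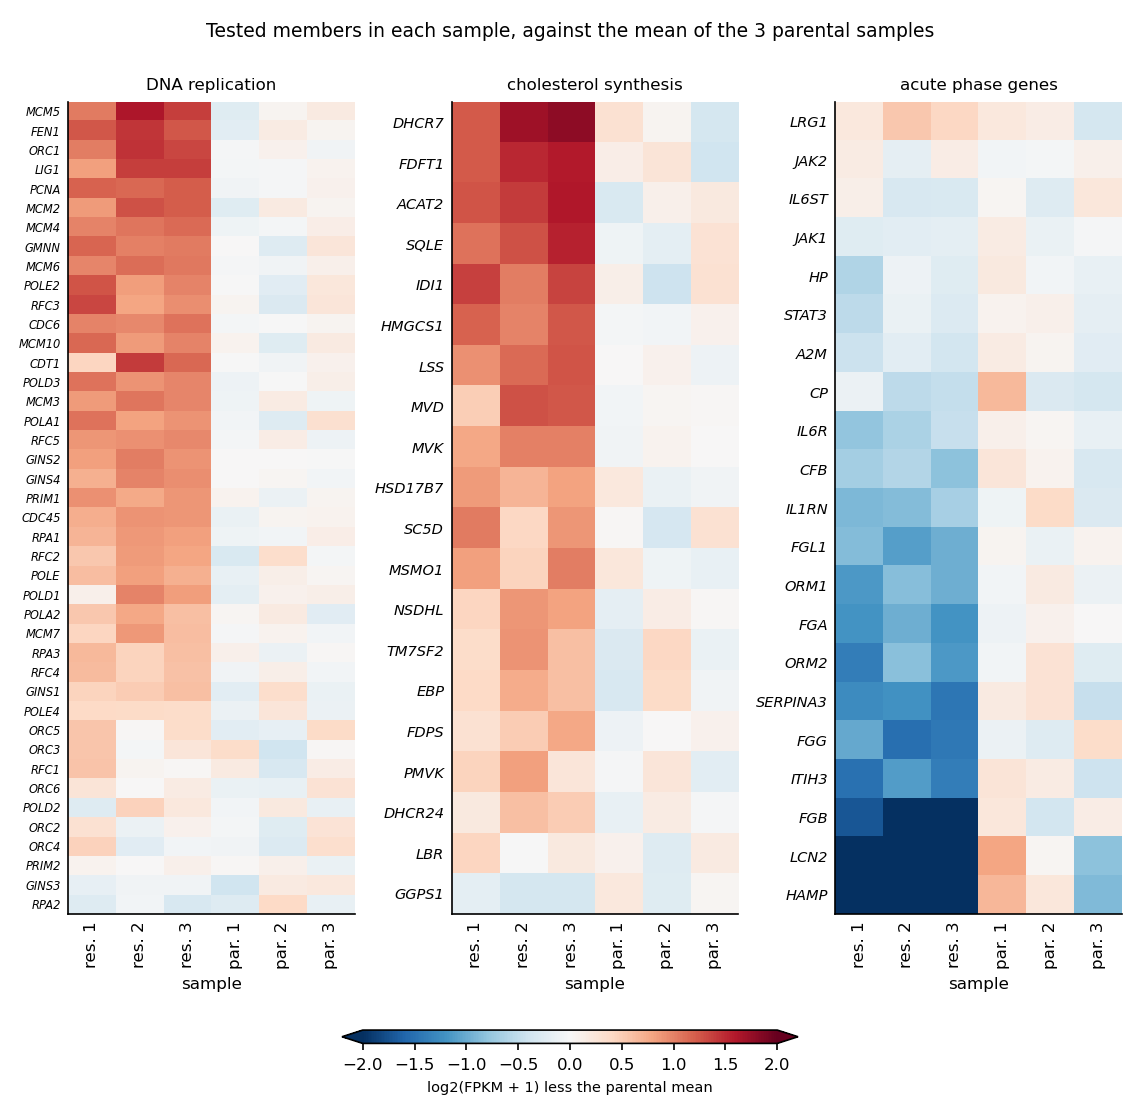
Colour gives log2(FPKM + 1) of tested genes in each sample, less the mean of the 3 parental samples, for DNA replication (42 genes), cholesterol synthesis (20 of the 21) and acute phase genes (21), ordered by log2 fold change. Resistant samples (res.) are redder than parental samples (par.) for most genes of the first 2 lists and bluer for most of the third. The scale ends at 2 and -2, and HAMP, LCN2 and, in resistant replicates 2 and 3, FGB lie beyond it.

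Other plasma proteins and the factors that set hepatocyte identity moved in both directions. AFP fell from 1413, 1081 and 1688 FPKM to 423, 347 and 329 FPKM (-1.91, SE 0.20, adjusted p = 9e-04), and albumin (ALB) was at 951, 781 and 744 FPKM against 2137, 1132 and 1576 FPKM, lower at an adjusted p of 0.030 but short of a called size (-0.93). The thyroxine carrier SERPINA7 (1.56) and the apolipoproteins APOA2 (1.26) and APOA5 (1.24) were called higher, and the adhesion protein VTN lower (-1.09). Of 25 hepatocyte transcription factors 3 were called lower, among them HNF4G (-1.21) and NR0B2 (-1.01), and none higher. HNF4A itself did not differ beyond the spread (0.01, SE 0.18). Fetal liver and stem cell genes showed 1 call among 15, the imprinted gene PEG10 (1.26), with GPC3 higher at 0.46 and SALL4 lower at -0.75.

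Genes of the ATF4 programme, which answers amino acid shortage and protein folding stress, were lower in resistant cells. PPP1R15A, the phosphatase subunit that ends this response, was at 8.48, 10.1 and 9.47 FPKM in resistant and 37.5, 45.2 and 35.7 FPKM in parental cells (-1.96, SE 0.15, adjusted p = 0.00021). SLC7A11, the cystine importer, fell from 53.9, 54.5 and 78.2 FPKM to 23.2, 14.2 and 13.4 FPKM (-1.84, SE 0.24), and the calls also took in MTHFD2 (-1.31), TRIB3 (-1.304), CEBPB (-1.17) and SLC38A2 (-1.08). These were the 6 of 22 members called lower, against 2.98% of all genes, and none was called higher. The list had a median of -0.79. At an adjusted p under 0.05, 14 members were lower (6 without resistant replicate 3), against 8.43% of all genes. ATF4 (-0.65) and ASNS, asparagine synthetase (-0.78), were among them. DDIT3 was at 0.28 and did not pass. Single enzymes of sulfur and nitrogen metabolism fell: CTH, which makes cysteine from cystathionine, was at 5.94, 6.73 and 5.56 FPKM against 37.3, 45.2 and 45.4 FPKM (-2.62, SE 0.14), ARG2 fell by 1.82, NAGS by 1.68 and ASS1 by 1.62, the 4 members called of 22 in the urea cycle and amino acid list. The whole list had a median of -0.14, with 9 of 22 members above 0. In the list of chaperones and unfolded protein response genes, 2 of 22 were called higher, HSPB1 (1.46) and HSP90AA1 (1.29). HSPB1 was at 25.4, 46.6 and 45.4 FPKM against 12.2, 12.5 and 14.7 FPKM, lowest among the resistant samples in replicate 1, and HSP90AA1 was at 0.9967 without parental replicate 2, just under the size needed.

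Antioxidant and iron genes gave a mixed picture. NRF2 is the transcription factor that induces glutathione and detoxification enzymes. Of the 24 tested genes of its pathway 5 were called lower, against 2.98% of all genes, and none higher (median -0.30). AKR1B10, an aldo-keto reductase, was at 7.28, 10.98 and 10.1 FPKM against 35.6, 45.4 and 44.9 FPKM (-2.05, SE 0.18). The exporter ABCC3 (-1.32), AKR1C2 (-1.08), the glutathione synthesis subunit GCLM (-1.07) and thioredoxin reductase TXNRD1 (-1.031) were the other 4, while NQO1 (-0.19) and the factor NFE2L2 (-0.32) did not pass and KEAP1, its inhibitor, was higher (0.94). In a list of iron genes and regulators of ferroptosis, cell death by lipid peroxidation, 3 of 21 were called lower (HAMP, SLC7A11 and the acyl-CoA synthetase ACSL4, -1.05). GPX4, the peroxidase that guards membrane lipids, was the 1 called higher. GPX4 was at 32.8, 84.4 and 69.5 FPKM against 25.2, 25.2 and 30.9 FPKM, so that resistant replicate 1 lay close to the parental samples. Its call (1.07, adjusted p = 0.046) was lost in 5 of the 6 reduced fits, all but that without resistant replicate 1, with values of 0.80 without resistant replicate 2, 0.94 without resistant replicate 3 and adjusted p of 0.128, 0.0997 and 0.07 without parental replicate 1, 2 or 3.

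Many DNA replication genes rose, and no tested member of the list was called lower. The list does not hold CDC7, the kinase that starts replication origins, which fell and is described under other observations. The replicative helicase subunit MCM5 was at 29.1, 44.0 and 37.3 FPKM in resistant and 11.4, 14.3 and 15.7 FPKM in parental cells (1.34, SE 0.19, adjusted p = 0.0028), and the polymerase clamp PCNA at 397, 386 and 403 FPKM against 167, 171 and 186 FPKM (1.18, SE 0.13). The flap endonuclease FEN1 (1.31), the origin protein ORC1 (1.27) and DNA ligase LIG1 (1.20) were of like size. In all 12 of 42 tested members were called higher, against 3.29% of all genes, none lower, and 29 were higher at an adjusted p under 0.05. The median was 0.84 and 40 members lay above 0. Under median-ratio scaling or with the GC trend removed, 6 were called, and 7 after upper-quartile scaling. MCM2, at 1.12, fell just short of a called size without parental replicate 1 (0.9957).

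E2F factors bind the promoters of many such genes. The letters TTTGGCGC, on either strand, occurred in 6 of the 36 replication promoters found (0.659% of all promoters, 1.24% of those of tested genes), and TTTCCCGC in 10 of 36 (1.66% of all, 2.86% of those of tested genes). Of the 10 called replication genes with a promoter found, 3 held TTTGGCGC and 3 held TTTCCCGC. A match is again a description only. Stretches are shown, with the matches in capitals, for genes chosen because they hold a match and passed the test.
MCM6 (chr2:135876496-135876625, - strand, TTTGGCGC): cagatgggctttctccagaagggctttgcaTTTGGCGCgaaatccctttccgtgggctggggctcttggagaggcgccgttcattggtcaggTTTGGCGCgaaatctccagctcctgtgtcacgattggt
POLA1 (chrX:24693751-24693818, + strand, TTTGGCGC): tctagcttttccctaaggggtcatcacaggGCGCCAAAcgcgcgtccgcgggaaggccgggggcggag
RFC3 (chr13:33818064-33818131, + strand, TTTCCCGC): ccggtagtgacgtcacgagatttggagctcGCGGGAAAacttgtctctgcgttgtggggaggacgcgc
MCM6 rose by 1.05, RFC3 by 1.02 and the primase-polymerase subunit POLA1 by 0.93. Of the 16 cholesterol synthesis promoters found, 0 held the sterol element letters CACCCCAC, which 2.72% of all promoters hold, and 12 held CCAAT (35.7% of all).

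Other proliferation lists had lower medians. Of 36 tested mitosis genes 1 was called higher, a share close to the 3.29% of all genes, namely CCNB1 (1.28, at 107, 122 and 124 FPKM against 42.6, 52.0 and 48.9 FPKM), the list had a median of 0.14, and MKI67 was higher at 0.88 (adjusted p = 0.0095). Among G1 regulators 3 of 24 were called higher, the kinase inhibitor CDKN2C (1.26) and the repressors E2F8 (1.09) and E2F7 (1.07), and 1 was called without parental replicate 1 or under median-ratio scaling. The inhibitors CDKN2B (-0.99) and CDKN1B (-0.93) were lower at an adjusted p under 0.05. DNA repair showed 2 of 39 called higher, against 3.29% of all genes, the helicase BRIP1 (1.23) and the exonuclease EXO1 (1.10). At an adjusted p under 0.05, 14 were higher, against 11.6% of all genes, and the median was 0.44. The 14 became 9 and 5 without resistant replicates 2 and 3 and 6 without parental replicate 1, and the 2 became 4 without parental replicate 3. Of 20 genes induced by DNA damage 3 were called higher, against 3.29% of all genes, namely FDXR (1.51), SPATA18 (1.05) and the death receptor FAS (1.028). CDKN1A was at 0.05, and 1 of the 20 was called after upper-quartile or median-ratio scaling or with the GC trend removed. FAS was at 0.90 without resistant replicate 1 and 0.86 without parental replicate 2. Nucleotide synthesis had 2 of 35 called lower, against 2.98% of all genes, cytidine deaminase CDA (-1.80) and MTHFD2, with a median of -0.08. At an adjusted p under 0.05, 6 members were lower and 6 higher, against 8.43% and 11.6% of all genes. CTPS1 (0.94), the thymidine kinase TK1 (0.92) and TYMS (0.63) were among those higher, of which 1 passed without resistant replicate 3 and 3 without resistant replicate 2 or parental replicate 1. Of those lower, 3 passed without resistant replicate 1 or 3 or parental replicate 2. Among replication-dependent histones 9 of 44 were called higher, led by HIST2H3D (2.34) and HIST2H2BF (2.26), with HIST1H1B at 218, 366 and 307 FPKM against 47.1, 90.7 and 84.2 FPKM (2.01). These genes are near-identical, and most of their messages lack a poly(A) tail. HIST2H3D was at 23.3, 95.4 and 110 FPKM in resistant cells, lowest in replicate 1, and the number of histones called was 13 without that sample, 4 and 2 without resistant replicates 2 and 3, and 1 and 4 without parental replicates 1 and 2.

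Cholesterol synthesis, which runs from acetyl-CoA through mevalonate and squalene, was higher along most of its length. Of 21 tested enzymes 8 were called higher and none lower, 14 were higher at an adjusted p under 0.05 (9 without resistant replicate 3) and the median was 0.79. From the top of the pathway, ACAT2 rose by 1.42, HMGCS1 by 1.14, MVD by 1.004, IDI1 by 1.25, the squalene-forming FDFT1 by 1.44, SQLE by 1.302, LSS by 1.10 and DHCR7 by 1.57. The call of MVD held in 3 of the 6 fits without 1 sample. DHCR7 (chr11:71428193-71452868), the last enzyme, was at 16.4, 22.96 and 24.7 FPKM against 8.13, 6.65 and 4.81 FPKM, every resistant sample above every parental one (SE 0.22, adjusted p = 0.0025). Genes of sterol uptake and regulation were split, and none of 15 was called. At an adjusted p under 0.05, 4 were higher and 4 lower, against 11.6% and 8.43% of all genes. SREBF2 was at -0.43, and the efflux pump ABCA1 and sterol carrier STARD4 were higher at 0.70 and 0.77. Without resistant replicate 3 or parental replicate 1, 0 of the 15 were higher at that level.

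Fatty acid metabolism changed at single steps. Of 28 oxidation and ketone genes 6 were called lower and none higher, with a median of -0.10, and 4 of the 6 were acyl-CoA synthetases, which activate fatty acids. ACSL5 was at 9.87, 11.3 and 9.92 FPKM against 107, 103 and 74.98 FPKM (-3.07, SE 0.17, adjusted p = 6.3e-05), ACSL3 fell by 1.88, ACSL1 by 1.36 and ACSL4 by 1.05. The call of ACSL4 ended without resistant replicate 2 (-0.88), resistant replicate 3 (adjusted p = 0.057) or parental replicate 1 (-0.92). The coactivator PPARGC1A fell by 1.08, short of a called size without resistant replicate 2 (-0.96) or parental replicate 1 (-0.88). CPT1A, the gate of mitochondrial fatty acid entry, was at -0.50 and did not pass. Among 26 lipid synthesis and droplet genes, PLIN2, which coats lipid droplets, fell from 543, 768 and 516 FPKM to 160, 196 and 180 FPKM (-1.74, SE 0.19) and the elongase ELOVL5 fell by 1.05. FASN, fatty acid synthase, was called higher (1.301, adjusted p = 0.023), at 72.9, 167 and 158 FPKM against 44.8, 44.2 and 62.5 FPKM. Its call ended without resistant replicate 2 or 3 (adjusted p = 0.061 and 0.076), without parental replicate 1 or 2 (adjusted p = 0.081 and 0.060) and with the GC trend removed (0.99). In glycolysis, 24 genes tested, HK2 fell from 128, 134 and 134 FPKM to 37.0, 37.9 and 39.0 FPKM (-1.77, SE 0.12), the hepatic glucose transporter SLC2A2 fell by 1.38 and the liver pyruvate kinase PKLR rose by 1.25. PCK2 (-1.35) was the 1 of 11 gluconeogenesis and pentose phosphate genes called.

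**Figure D4:**
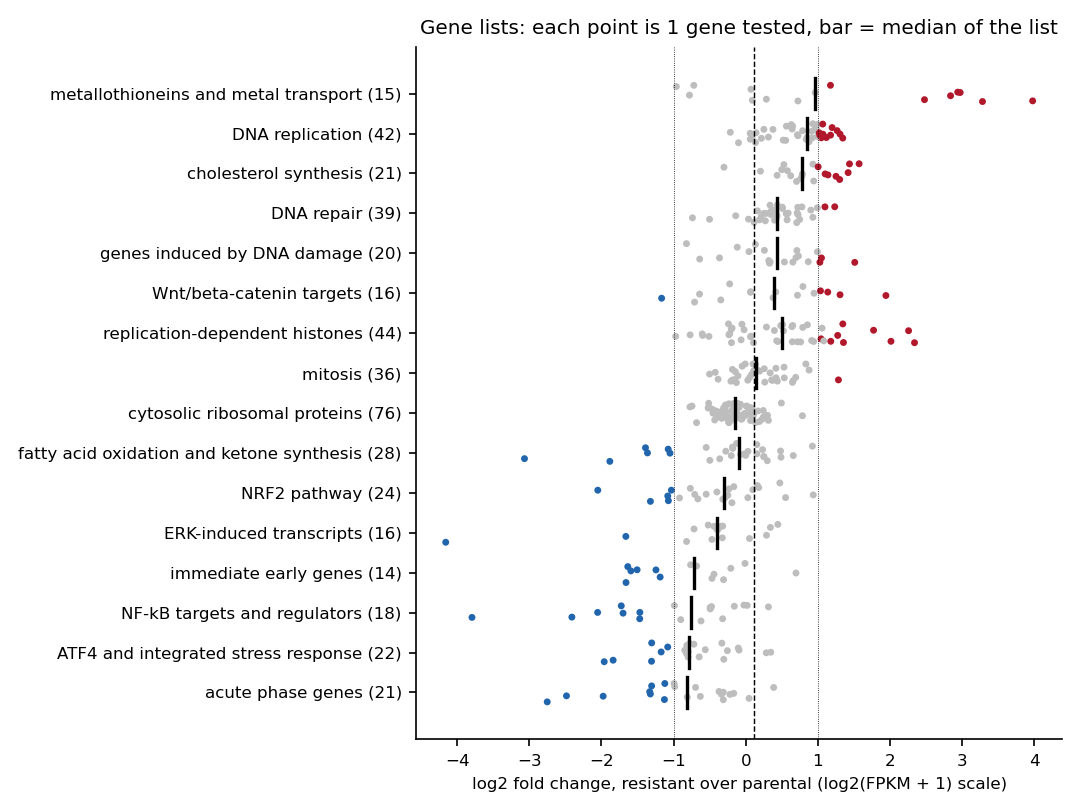
Log2 fold change, resistant over parental, of every tested member of 16 gene lists, with the number tested in brackets. Red points were called higher, blue points lower and grey points not called, the black bar is the median of the list and the dashed line the median of all genes (0.12). Medians run from -0.81 for acute phase genes to 0.96 for metallothioneins and metal transport.

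Genes that handle drugs moved both ways. Of 16 tested cytochrome P450 enzymes, CYP3A5 (1.90, at 8.26, 5.99 and 6.20 FPKM against 1.28, 0.903 and 1.04 FPKM) and CYP2W1 (1.81) were called higher, and CYP24A1, which breaks down vitamin D (-2.21), CYP2B6 (-1.74) and CYP2S1 (-1.12) lower. CYP3A4, which oxidises sorafenib in liver, did not exceed 0.150 FPKM in any sample. In a list of conjugating and other drug-handling enzymes, 5 of 22 tested were called. CES1, UGT2B4 (-2.48), ADH4 (-2.17) and GSTA1 (-1.53) were lower, and the sulfotransferase SULT2A1 was higher (1.08). Among 24 ABC transporters and drug carriers none was called higher and 4 lower, against 2.98% of all genes, namely SLC22A9 (-1.85), ABCC3, ABCC4 (-1.32) and SLCO4C1 (-1.19). The exporters most often tied to drug resistance were not called higher: ABCB1 was at 14.9, 11.8 and 12.3 FPKM against 18.0, 15.5 and 20.9 FPKM (-0.45, adjusted p = 0.080), ABCG2 was lower (-0.62, adjusted p = 0.014), and ABCC2 was at -0.29 (adjusted p = 0.21).

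In the Wnt pathway list, whose effector CTNNB1 was at -0.35 (adjusted p = 0.081), 4 of 16 genes were called higher and 1 lower. TNFRSF19 was at 84.3, 73.4 and 80.8 FPKM against 14.8, 17.8 and 29.8 FPKM (1.94, SE 0.24), and the Wnt inhibitors ZNRF3 (1.31) and NKD1 (1.14) and the ammonium transporter RHBG (1.04) rose, while the glutamate transporter SLC1A2 fell (-1.17). AXIN2 (0.38) and LGR5 (0.07) did not pass. In the TGF-beta and BMP list (25 tested), the pseudoreceptor BAMBI (1.64) and BMP4 (1.13) were called higher, and 2 lower, of which the repressor TGIF1 (-1.43) changed less, with a median of -0.15. Of 19 epithelial and mesenchymal genes, the collagen receptor ITGA2 (-1.80) and the factor SNAI1 (-1.13) were called lower. The extracellular matrix list had 1 call of 15, the laminin chain LAMA5 (1.90), at 18.0, 44.1 and 43.1 FPKM against 8.41, 5.72 and 10.5 FPKM, again lowest in resistant replicate 1. Of 18 hypoxia and angiogenic genes, EDN1 (-1.44) and EGLN3 (-1.2999) were called lower, and VEGFA was lower at -0.68 (adjusted p = 0.012). In the PI3K, AKT and FoxO list the transcription factor FOXO3 was the 1 call of 22, at 5.56, 5.55 and 5.36 FPKM against 19.4, 15.6 and 22.6 FPKM (-1.62, SE 0.16), and FOXO1 was lower at -0.91. The BCL2 family had BOK called higher (1.42) and PMAIP1 (-1.22), BMF (-1.07) and the survival protein MCL1 (-1.033) lower, of 11. Of these 4, PMAIP1 was called whichever single sample was removed, BOK and BMF lost their calls in 4 and 5 of the 6 reduced fits, the BOK samples of the groups overlapped (13.003 against up to 14.2 FPKM), and MCL1 missed the size needed without resistant replicate 2 or parental replicate 3 (both -0.98).

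Housekeeping lists held few called genes, beside 6.27% of all genes called. None of 76 cytosolic ribosomal protein genes was called, but 54 lay below 0 and the median was -0.14, against 0.12 over all genes. None of 39 proteasome subunits was called (median 0.14). Of 66 nuclear genes of oxidative phosphorylation 1 was called (COX8A, 1.39, median 0.21), and of 66 mitochondrial ribosomal protein genes 1 (MRPS15, 1.14, median 0.19). Of the mitochondrially encoded genes 2 were tested, MT-CO1 (0.18) and MT-ND3 (-0.20). Among 17 interferon and MHC class I genes, HLA-E was called lower (-1.01), and missed the size or the p needed in 4 of the 6 reduced fits (-0.88 to -1.001). Under all alternatives the median of the cytosolic ribosomal list stayed between -0.26 and -0.05.

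Position along the genome, which played no part in choosing the genes, went with the direction of change on chromosome 1. A run of 184 neighbouring tested genes from NECAP2 to ZMYM1 (chr1:16440672-35115859, GRCh38, 18.7 Mb) was lower almost throughout: 157 of the 184 had log2 fold changes below 0 (85.3%), the median was -0.51, and the middle of the distribution (quartiles) ran from -0.76 to -0.19. The remaining 1076 tested genes of chromosome 1 had a median of 0.10 and 41.1% below 0. In the run 28 genes (15.2%) were called lower and none higher, against 3.72% called lower in the rest of the chromosome, and all 3 resistant samples lay below all 3 parental samples for 63.6% of its genes against 16.1%. The run was found after the values were seen, as the stretch with the largest summed departure from the median of all genes, so no test was made. All 3 resistant samples lay below all 3 parental samples in the median of its genes (-0.36, -0.19 and -0.22 against 0.17, 0.34 and 0.20, log2 units from the mean of each gene). The median lay between -0.60 and -0.43 under every alternative, those that left out 1 sample included.

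**Figure D5:**
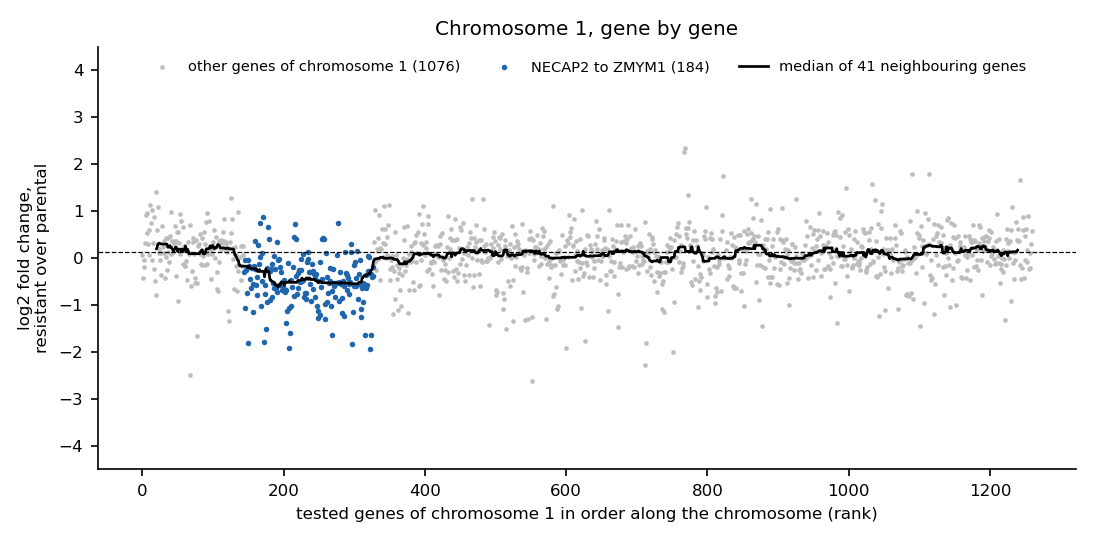
Log2 fold change, resistant over parental, of the 1260 tested genes of chromosome 1 in their order along the chromosome, with the 184 genes from NECAP2 to ZMYM1 in blue, the median of 41 neighbouring genes as a black line and the median of all genes (0.12) dashed. The black line drops to about -0.5 within the blue genes and returns to the dashed line on both sides.

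The genes called lower in this run have unlike roles. The largest falls were PHC2, a Polycomb protein (-1.94), the cytokine receptor chain IL22RA1 (-1.92), SERINC2 (-1.83), CDA, YARS, the tyrosyl-tRNA synthetase (-1.65), and XKR8 (-1.65). WASF2, which drives actin branching, was at -1.301, the huge ubiquitin ligase UBR4 at -1.14 and the bile acid-induced repressor NR0B2 at -1.01. In all 85 of the 184 genes were lower at an adjusted p under 0.05, among them, without reaching a called size, the ribosomal protein gene RPL11 (-0.68), SESN2 (-0.82) and ID3 (-0.52), while 27 lay above 0. NR0B2, CDA, SESN2 and RPL11 are counted in the lists above and share this position. The next runs by summed departure, with scores of 7.44 and 7.21 against 56.6, held 109 genes over 58.3 Mb of chromosome 4 (median -0.21, 79 below 0), where resistant replicate 1 (0.043) lay above parental replicate 2 (-0.031), and 40 genes of chromosome 6 from SNX9 to PDCD2 (median -0.34, 32 below 0). The latter includes SOD2, and also ACAT2, which rose. Short runs of higher genes included the metallothionein region of chromosome 16 (15 genes from MT2A to CX3CL1, median 0.83), 9 genes of chromosome 2 from COBLL1 to the small RNA RF00019 (1.05), 10 genes of chromosome 11 from HEPACAM to HYLS1 (0.97), 10 genes of chromosome 12 from PRH1 to TAS2R30 (0.70), 11 genes of chromosome 10 from RUFY2 to RNU6-697P (0.66) and the 2 histone clusters of chromosomes 6 and 1 (0.88 and 0.70). In the histone cluster of chromosome 6, resistant replicate 1 (-0.17) lay below parental replicate 3 (-0.048). By whole chromosome, medians ran from -0.09 on chromosome 6 and -0.07 on chromosome 4 to 0.28 on chromosome 11.

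Across all genes the log2 fold change hardly followed GC content (Spearman 0.039 over 11756 genes), exon length (-0.105) or mean level (-0.10). These are descriptions across genes measured in the same 6 samples, and genes are not independent replicates. Long non-coding genes with the largest changes were LINC01564 (0.313, 0.387 and 0.616 FPKM against 11.8, 5.61 and 6.85 FPKM, -2.61), AC012123.1, AL590617.2 (-1.86), AC084781.2 (1.25) and AC090425.1 (1.23). The last 2 had at most 13 and 7 reads in any sample, and the call of AC090425.1 held in 3 of the 6 reduced fits.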

How the data were processed

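RNA of 3 sorafenib-resistant and 3 parental HepG2 samples was sequenced (RNeasy kit, 2 μg of total RNA and NEBNext Ultra RNA kit, per the labels). The authors used GRCh38 and deposited 1 FPKM value per gene and sample; the unit itself is inferred here. Multiplied by exon length (GENCODE 29) the values fall on whole reads, within 0.05, for 99.8% to 99.9% of single-exon genes. The build and bcl2fastq come from the submitters' processing notes. The aligner, the counter and strand use are not given in the sources used here. The tables also list NONCODE genes, which were not tested.

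Genes reaching 1 FPKM in 3 or more samples were fitted with limma 3.58.1 (R 4.3.3; empirical Bayes with a trend, two-sided) on log2(FPKM + 1), with Benjamini-Hochberg adjustment over all 11762 genes. A gene was called at an adjusted p under 0.05 and a log2 fold change beyond 1. Alternatives changed the pseudocount, filter, scaling, variance model, unit (limma-voom on recovered reads), replicate block and GC trend, and left out each sample in turn. Named genes were the 12 called genes with the largest change in each direction with non-overlapping groups and a mean of at least 1 FPKM in either, up to 6 called members per list and direction (with fewer than 2, the 2 with the smallest p), a fixed set of 32 genes and 5 long non-coding genes. Others were named after their values were seen. The samples, the 46 gene lists and the tests were chosen with earlier results of these data known. Where a symbol has several identifiers, the one with the highest mean was used. Promoters are from RefSeq (GRCh38.p14). Depth limits precision by counting error only: 3 reads on a 2 kb gene correspond to 0.0820 to 0.122 FPKM. The fit was tested on simulated data. Some genes that the rule names are not reported here.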

Additional observations from a re-analysis of the deposited data

Results flagged for a closer look

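The share of the summed FPKM in rows of NONCODE, a catalogue of non-coding genes outside the tests above, was flagged as a signal in data that no comparison used. It was 20.7%, 16.6% and 18.5% in resistant replicates 1, 2 and 3 (mean 18.6%, SD 2.06, n = 3) and 16.2%, 15.1% and 16.2% in parental replicates 1, 2 and 3 (mean 15.8%, SD 0.626, n = 3). The difference was not tested. It was highest in resistant replicate 1.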

How the results depend on the processing

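The count of genes called higher (387) became 612 with a pseudocount of 0.1 and 685 with limma-voom on recovered reads. With the other alternatives it lay between 278 and 517, and the count of genes called lower (350) between 330 and 492, except for 267 with 1 FPKM required in all 6 samples, where 10064 genes were tested and 4 rather than 7 NF-kB genes were called. Leaving out 1 sample at a time gave 306 to 510 genes higher and 331 to 396 lower. Of the 154 named genes that were called, none reversed its direction, but 24 lost their call without parental replicate 1, 5 to 15 without another sample, 16 with no filter, 9 with the GC trend removed and at most 7 under the others. With the replicate number as a block, 426 genes were higher and 353 lower, including 385 and 348 of the main calls. The numbers are not shown to pair the samples: deviations of same-numbered samples correlated at 0.246, 0.437 and -0.011, and resistant replicate 3 did not correlate best with its own number. Removing the GC trend, or median-ratio scaling, lowered the median of all genes by 0.105 and 0.0914, and replication genes called went from 12 to 6 under either. The removal of the GC trend also takes out the overall offset of each sample, as scaling does. Genes of a few reads, such as AC090425.1, are limited by depth. The cause of these shifts was not tested. The alternatives for the runs of neighbouring genes were chosen after seeing the data.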

Other observations

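Further genes outside the lists were among the large changes, chosen here after their values were seen. TXNIP, which restrains glucose uptake and binds thioredoxin, was at 40.7, 36.2 and 41.8 FPKM in resistant and 181, 180 and 131 FPKM in parental cells (-2.01). GOT1, the cytosolic aspartate aminotransferase, fell by 2.08, ERRFI1, a feedback inhibitor of EGFR, fell by 2.50, KLF5 fell by 2.38, MXI1, a MYC antagonist, fell by 2.13, and DEPTOR, an inhibitor of mTOR, fell by 1.91. CX3CL1, the chemokine fractalkine, rose by 1.90 while CXCL8, CCL20 and CXCL2 fell. The kinase CDC7, which starts replication origins, fell by 1.93 while 12 of 42 genes on the replication list, which does not hold it, were called higher.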
